A study of Capra hircus with 25 samples.

Results

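Liver microRNAs (miRNAs) of 12-week-old Laiwu black goat kids were set against those of 1-day-old kids, the widest span of age in a series that also sampled 2, 4 and 8 weeks. Laiwu black is a breed of domestic goat (Capra hircus). Each age had 5 libraries, made from liver that was frozen and extracted with Trizol, and the labels name no treatment or diet for either age. The values are taken to be RPM, the reads of 1 miRNA after each library is scaled to 1 common total. All entries of the expression table with at least 1 RPM in at least 5 of the 10 libraries were described, which gave 388 of 463 entries, 368 with goat names and 20 with sheep names (prefix oar-). Names without a prefix are goat entries. Whether the 5 libraries of an age are 5 kids is not said in the labels, so each p-value rests on the spread among libraries, part of which may be technical.

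A miRNA guides an Argonaute protein to messenger RNAs that carry a short match to its 5′ end, and the targeted messenger RNA is repressed. The precursor hairpin yields a strand from its 5′ side (5p) and a strand from its 3′ side (3p), of which 1 is usually kept and the other discarded. Many miRNA genes lie close together and are copied as 1 transcript, and others lie within introns of protein-coding genes. In the mammalian liver, birth is followed by a loss of blood-forming cells, slower division of hepatocytes and the change from milk to solid feed, and hepatocytes are marked by miR-122. In bulk liver, fewer cells of a type and less RNA per cell cannot be told apart.

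About 8802847 to 12096213 miRNA reads lay behind each 12-week library and 7169463 to 10029929 behind each 1-day library, as read from the smallest step between values. These depths assume that values are whole multiples of 1 read, and too few low values were left to check recovered reads. At that depth 1 read was worth 0.0838 to 0.142 RPM, and a count of 0 allows up to 0.251 to 0.425 RPM (3 reads, counting error only). Libraries of 1 age correlated at 0.989 to 0.996 (12 weeks) and 0.991 to 0.996 (1 day), and libraries of different ages at 0.960 to 0.976 (Pearson's r over log2(RPM + 1) of the tested miRNAs, which are not independent points). miR-122 was the most abundant miRNA in each of the 10 libraries, with 136789 to 197504 RPM at 12 weeks and 135914 to 173609 RPM at 1 day.

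Changes were tested with limma on log2(RPM + 1) over all 405 miRNAs that passed the filter on all 25 libraries, and a miRNA was called at an adjusted p under 0.05. The lower side outnumbered the higher side: 218 of the 388 members (56.2%) were lower at 12 weeks and 47 (12.1%) were higher, and 123 were not called. Over all 405 tested, 54.8% were lower and 11.6% higher. For 212 members no library of 1 age reached the range of the other age (54.6%, and 53.1% of those tested). The rule admits 12 members that reached 1 RPM at 1 age only and so had to differ, in that their ages could not overlap. Of the other 376 members 209 were lower and 45 higher. Another 6 members form 3 pairs with identical values, and with each pair counted once 216 were lower and 47 higher of 385. A change of at least 2-fold was called in 138 members, 18 higher and 120 lower.

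This imbalance depended on how the libraries were scaled. The median log2 change of the members was −0.56 in the deposited values, −0.02 after median-ratio scaling (each library divided by the median ratio of its miRNAs to their mean over libraries) and −0.06 after TMM scaling (a trimmed mean of such ratios). Median-ratio scaling called 116 members higher and 129 lower (against 29.1% and 32.6% of all 405 tested), and TMM scaling 110 and 133 (against 27.4% and 33.6% of all 405). Of the 218 called lower in the deposited values, 129 were lower after median-ratio scaling too, 84 were not called and 5 were called higher. All 47 higher calls were kept in it, and 64 members without a call became higher. The 47 increases and 129 decreases also held after TMM scaling, and a direction that does not hold is given with its result. The 5 members with opposite calls were miR-126-3p, miR-24-3p, miR-151-5p, miR-25-3p and miR-331-5p, the last chosen after its values were seen. The deposited calls of the first 4 were each lost without at least 1 of the libraries. That of miR-151-5p (−0.22 ± 0.10, adjusted p = 0.0439, limma) ended without 12-week replicate 3, 4 or 5 and without 1-day replicate 2, 3 or 4 (adjusted p of 0.0562 to 0.129).

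**Figure D1:**
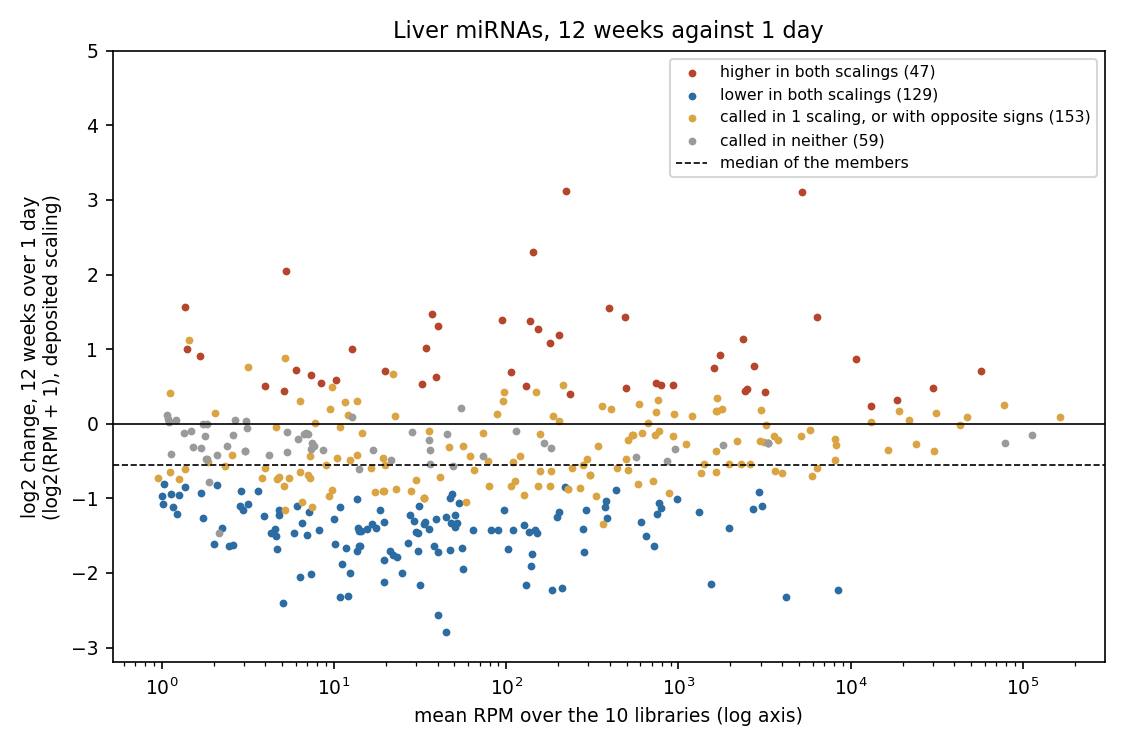
Each point is 1 of the 388 miRNAs, with its mean RPM over the 10 libraries on a log x axis and its log2 change at 12 weeks over 1 day in the deposited scaling on the y axis. Colours give the calls in the deposited and the median-ratio scaling (47 higher in both, 129 lower in both), the solid line is 0 and the dashed line the median of −0.56, and the 18 miRNAs over 10000 RPM lie near 0, with a median of 0.09.

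The direction of the calls also differed by abundance. Among 113 members with a mean of 10 to 100 RPM, 80 were lower and 9 higher, with a median log2 change of −0.998 (−0.43 after median-ratio scaling, with 57 lower and 22 higher). Among the 94 members at 100 to 1000 RPM, 53 were lower and 15 higher, a balance that turned after median-ratio scaling to 28 lower and 35 higher. Among the 50 at 1000 to 10000 RPM, 23 were lower and 9 higher, and 8 lower and 26 higher after it. The 18 members over 10000 RPM had a median of 0.09 (0.68 after median-ratio scaling), with 3 lower and 5 higher (none lower and 14 higher after it). These 18 held 81.7% of the RPM at 12 weeks and 77.7% at 1 day. The 113 members under 10 RPM held 0.0351% at 12 weeks and 0.0548% at 1 day, with 59 lower and 9 higher (36 lower and 19 higher after median-ratio scaling).

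Within the abundant pool, miR-26a-5p and miR-16a-5p rose most. miR-26a-5p, which represses the histone methyltransferase EZH2 in human cells, had 60432, 82209.9, 73278, 70146 and 69019.6 RPM in the 12-week libraries, against 40984, 40466, 46593, 43491 and 44974 RPM in the 1-day libraries (log2 change 0.71 ± 0.08, adjusted p = 4.47e-08, limma). The lowest 12-week library stood above the highest 1-day library. miR-16a-5p belongs to a family that represses BCL2 and cyclins in human cells. It had 14689, 14399.9, 13996, 12363 and 13424 RPM in the 12-week libraries, against 7593, 7622, 7972, 6909 and 7673 RPM in the 1-day libraries (log2 change 0.87 ± 0.11, adjusted p = 3.69e-07, limma), again with no overlap. miR-101-3p, another repressor of EZH2 in human cells, had 34135, 30495, 34076, 40860.3 and 35499 RPM in the 12-week libraries, against 29253, 29826, 19588, 22729.8 and 25426 RPM in the 1-day libraries (log2 change 0.48 ± 0.12, adjusted p = 0.00125, limma). let-7a-5p, of the family that times development in worms, had log2 change 0.32 ± 0.09 (adjusted p = 0.00418, limma), and its libraries did not overlap. miR-22-3p, chosen after its values were seen, had 0.24 ± 0.10 (adjusted p = 0.0456, limma), a call lost without 12-week replicate 1, 3 or 4 and without 1-day replicate 2, 4 or 5 (adjusted p of 0.0577 to 0.139). On the lower side stood miR-27b-3p (−0.36), miR-30e-5p (−0.36) and miR-126-3p (−0.27). After median-ratio scaling their log2 changes were 0.23, 0.23 and 0.31, so the direction flips with the scaling. The call of miR-30e-5p ended without 1-day replicate 1 (adjusted p = 0.0638, limma) or 5 (0.0786). That of miR-126-3p ended without 12-week replicate 1 or 3 and without 1-day replicate 1, 4 or 5 (adjusted p of 0.0514 to 0.0684).

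A group of X-linked miRNAs was lower throughout. Of all 405 tested, 54.8% were lower as deposited and 32.6% after median-ratio scaling. In the RefSeq annotation of the goat assembly ARS1.2, miR-450, miR-542 and miR-424 are neighbours, and all 6 members from them were lower, in the deposited as in the median-ratio scaling (median log2 change −1.92, and −1.38 after median-ratio scaling). The whole group took 0.237% of RPM at 12 weeks and 1.06% at 1 day. miR-542-3p, which represses survivin (BIRC5) in human cells, had 1584, 1136, 1183, 1476 and 1747 RPM in the 12-week libraries, against 7086, 5932, 7106, 7379.5 and 7689.8 RPM in the 1-day libraries (log2 change −2.32 ± 0.13, adjusted p = 9.82e-14, limma). The highest 12-week library was far below the lowest 1-day library. miR-450-5p had 971, 428, 569, 449.5 and 502 RPM in the 12-week libraries, against 2788, 2936, 2729, 1818 and 2300.2 RPM in the 1-day libraries (log2 change −2.15 ± 0.23, adjusted p = 2.33e-08, limma). 12-week replicate 1 was the highest of its age and still below each 1-day library. miR-424-5p, known to repress cell-cycle genes in human cells, had 545, 293, 367, 269.8 and 308 RPM in the 12-week libraries, against 1215, 1119.6, 997, 941 and 1122 RPM in the 1-day libraries (log2 change −1.64 ± 0.17, adjusted p = 1.47e-08, limma), with the same replicate highest.

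A second X-linked group, miR-532, miR-500, miR-362, miR-502, miR-660 and miR-188, lies within introns of the chloride channel gene CLCN5 in human. Of its 10 members, miR-502b-3p reached 1 RPM at 1 day only and had to differ. The other 9 were lower in the deposited, median-ratio and TMM scalings (median log2 change −1.40, and −0.83 after median-ratio scaling), and the libraries did not overlap for any of the 9. The shares lower over all 405 tested were 54.8%, 32.6% and 33.6% in these scalings, and 53.1% had no overlap. miR-532-5p, the most abundant, had 178, 151, 149.8, 140.3 and 137 RPM in the 12-week libraries, against 397, 447, 379.8, 401 and 396 RPM in the 1-day libraries (log2 change −1.41 ± 0.11, adjusted p = 2.71e-10, limma). miR-660 had log2 change −1.18 ± 0.12 (adjusted p = 1.72e-08, limma) and miR-362-5p −0.85 ± 0.14 (adjusted p = 6.88e-06). The group is scarce: it took 0.0509% of RPM at 12 weeks and 0.118% at 1 day. Another pair of neighbours, miR-374b and miR-421, had 3 members, all lower in both scalings; among them miR-374b-5p had 302 ± 29.1 RPM at 12 weeks and 567 ± 94.5 RPM at 1 day (SD, n = 5 each) and a log2 change of −0.89 ± 0.14, and was chosen after its values were seen.

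The imprinted DLK1-DIO3 region, whose miRNAs are expressed from the maternal copy in mouse and human, gave the most numerous decreases. Of its 75 members 74 were lower and none was higher, and 63 were lower after median-ratio scaling (against 54.8% and 32.6% of all 405 tested). The 75 include miR-412-3p, oar-miR-370-5p and oar-miR-541-3p, which reached 1 RPM at 1 day only and had to differ. Of the other 72 members 71 were lower, and 60 after median-ratio scaling. miR-376b-5p and miR-376e-5p hold identical values and count as 2 members. The share of RPM summed over all 91 entries of the region was 1.01%, 1.08%, 0.943%, 1.14% and 0.779% in the 12-week libraries, against 2.44%, 2.31%, 2.5004%, 2.03% and 2.39% in the 1-day libraries, with no overlap. The annotation places 2 neighbour groups there. The miR-493 to miR-136 group, which holds miRNAs antisense to the retrotransposon-derived gene RTL1, had all 9 members lower in both scalings (median log2 change −1.68, and −1.11 after median-ratio scaling). In the larger miR-379 to miR-656 group, 52 of the 53 members reached 1 RPM at both ages, and all 52 were lower, and 41 after median-ratio scaling (median −1.34, and −0.77). A difference between these groups was not tested.

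Members of the region did not move by 1 amount. miR-493-5p had 110, 79.6, 87.4, 66.98 and 39.1 RPM in the 12-week libraries, against 287, 359, 469, 304 and 304 RPM in the 1-day libraries (log2 change −2.21 ± 0.29, adjusted p = 3.97e-07, limma), and its other strand miR-493-3p had −2.17 ± 0.30. 12-week replicate 5 was the lowest and 1-day replicate 3 the highest. miR-410-3p had 67.1, 60.4, 68.8, 87.04 and 38.6 RPM in the 12-week libraries, against 364, 228, 322, 238 and 359 RPM in the 1-day libraries (log2 change −2.23 ± 0.23, adjusted p = 1.82e-08, limma). miR-379-5p, the most abundant member, had 1877, 2098, 1660.5, 2252 and 1784 RPM in the 12-week libraries, against 3988, 4114, 4379, 3928 and 4306 RPM in the 1-day libraries (log2 change −1.11 ± 0.14, adjusted p = 3.56e-07, limma) and no overlap. Between them lay miR-412-5p (−1.90 ± 0.25), miR-3958-3p (−1.72 ± 0.20), miR-432-5p (−1.68 ± 0.23), miR-136-3p (−1.51 ± 0.14) and miR-411a-5p (−1.15 ± 0.15), each lower in both scalings. Of the 75 members, 55 had their lowest 12-week value in replicate 5 and 55 had their lowest 1-day value in replicate 4. Over all 388 members these libraries held the lowest value of their age in 173 and 136 cases. All 74 members remained lower without 12-week replicate 5, and without 1-day replicate 4, where 75 were lower.

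Other imprinted genes also held miRNAs that fell. miR-335-5p, from an intron of MEST, a gene expressed from the paternal copy in mouse and human, had 1996, 3079, 3886, 2916 and 3103 RPM in the 12-week libraries, against 15404, 15089, 12835, 10457 and 15596 RPM in the 1-day libraries (log2 change −2.23 ± 0.20, adjusted p = 1.37e-09, limma). At 1 day it was among the more abundant miRNAs, and each 12-week library stood below each 1-day library. The other strand of the same hairpin moved less: miR-335-3p had 479 ± 115 RPM at 12 weeks and 656 ± 164 RPM at 1 day (SD, n = 5 each) and did not pass (log2 change −0.45 ± 0.27, adjusted p = 0.138, limma), and its sign flips after median-ratio scaling (0.14). miR-483, from an intron of the fetal growth factor gene IGF2, had 19.7, 7.71, 10.02, 8.88 and 7.61 RPM in the 12-week libraries, against 56.8, 63.2, 126, 60.03 and 40.6 RPM in the 1-day libraries (log2 change −2.56 ± 0.33, adjusted p = 2.91e-07, limma). 1-day replicate 3 and 12-week replicate 1 stood high within their ages, and the ages did not overlap.

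**Figure D2:**
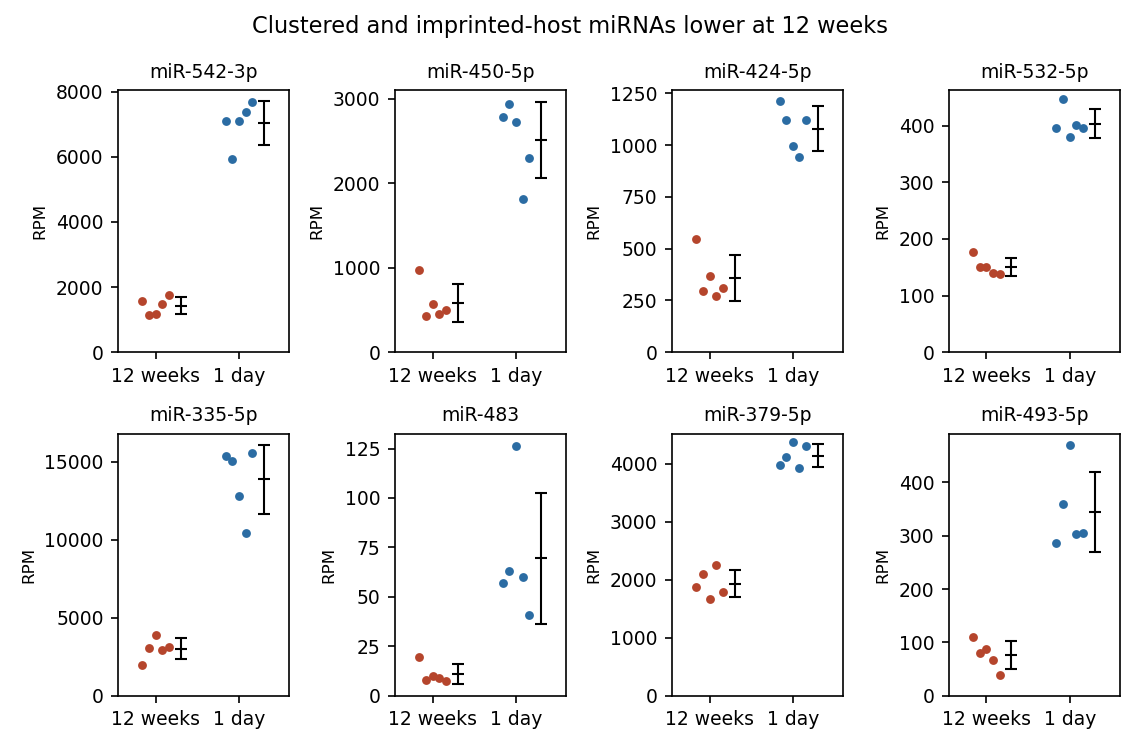
RPM of 8 miRNAs in each library (points; 12 weeks left, 1 day right) with mean ± SD beside them (n = 5 each), on linear axes that start at 0. No 12-week library reaches a 1-day library in any panel, and miR-542-3p stands at 1136 to 1747 RPM at 12 weeks, against 5932 to 7690 RPM at 1 day.

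Several miRNAs lie within genes of cell division in the RefSeq annotation, and they did not move as 1 set. miR-454 and miR-301a lie in SKA2, a gene of the spindle and kinetochore complex, and all 3 members were lower in both scalings. miR-454-3p had 47.8, 31.9, 35.4, 33.9 and 22.9 RPM in the 12-week libraries, against 75.5, 108, 132, 75.2 and 79.96 RPM in the 1-day libraries (log2 change −1.43 ± 0.22, adjusted p = 3.1e-06, limma), and miR-301a-3p had −1.46 ± 0.28 (adjusted p = 6.57e-05, limma). Their relative miR-130b-3p, from another locus, had −1.16 ± 0.22, while miR-130a-3p had −0.51 ± 0.15 as deposited, a sign that flips to 0.07 after median-ratio scaling. Over the miR-130/miR-301/miR-454 family 6 of 7 members were lower (5 after median-ratio scaling), against 54.8% (32.6%) of all 405 tested.

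miR-106b, miR-93 and miR-25 lie in MCM7, which encodes a subunit of the replicative helicase. Of their 6 members 5 were lower in the deposited values and none after median-ratio scaling, where miR-25-3p was called higher. The shares lower over all 405 tested were 54.8% and 32.6%. miR-106b-5p had 1056 ± 181 RPM at 12 weeks and 1654 ± 81.1 RPM at 1 day (SD, n = 5 each; log2 change −0.66 ± 0.14, adjusted p = 0.000233, limma), and −0.08 after median-ratio scaling. The call of miR-25-3p (−0.24) was lost without 12-week replicate 1, 3 or 5 and without 1-day replicate 3, 4 or 5 (adjusted p of 0.0538 to 0.102, limma), and that of miR-93-5p (−0.37, and 0.22 after median-ratio scaling) without 12-week replicate 2 (0.0517). miR-15b and miR-16b lie in SMC4, which encodes a condensin subunit. miR-15b-5p had log2 change −0.48 ± 0.17 (adjusted p = 0.0147, limma) and miR-16b-5p 0.17 ± 0.14 without a call, while after median-ratio scaling the values were 0.11 without a call and 0.75, called higher.

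The miR-17-92 group, a transcript with growth-promoting miRNAs that are amplified in human lymphoma, had the widest span of the neighbour groups. Its 10 members spanned 2.05 log2 units, against a median span of 0.55 over the 29 neighbour groups with at least 3 members. A span from lowest to highest tends to widen with the number of members, which was not adjusted for. miR-18a-5p had 75.9, 56.4, 80.5, 72.6 and 39.4 RPM in the 12-week libraries, against 244, 251, 209.7, 174 and 199 RPM in the 1-day libraries (log2 change −1.75 ± 0.23, adjusted p = 3.52e-07, limma). It was lower in both scalings and without overlap. miR-19a was lower too (−0.84 ± 0.23, adjusted p = 0.00273, limma), though not after median-ratio scaling (−0.26). miR-20a-5p had 0.27 ± 0.15, miR-17-5p −0.30 ± 0.17, miR-19b-3p −0.17 ± 0.17 and miR-92a-3p −0.16 ± 0.11, none of them called. After median-ratio scaling these 4 had 0.86, 0.29, 0.42 and 0.42 and were called higher, so for miR-17-5p, miR-19b-3p and miR-92a-3p the sign flips.

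By contrast, miR-183, miR-96 and miR-182, a cluster known from sensory organs, moved almost as 1. miR-182 had 19.4, 12.9, 21.9, 9.51 and 30.2 RPM in the 12-week libraries, against 47.1, 47.1, 95.7, 59.01 and 60.97 RPM in the 1-day libraries (log2 change −1.72 ± 0.28, adjusted p = 8.04e-06, limma). The log2 changes of miR-183 (−1.71) and miR-96 (−1.70) were within 0.0207 of that of miR-182, the narrowest span of the 29 groups. With 3 members it is also among the smallest of them. All 3 were lower in both scalings, and the ages did not overlap. Of these 29 groups, 12 had each member called in 1 direction as deposited and 8 did so in both scalings, while 2 held deposited calls in both directions. These counts were the same without members at 1 RPM at 1 age only. As deposited, 54.8% of all 405 tested were lower. The 2 mixed groups, let-7a with let-7b and miR-451 with miR-144, had no lower call after median-ratio scaling. In that scaling the miR-17-92 group was mixed, with 5 higher and 2 lower.

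The miR-34 family, induced by p53 and abundant in ciliated cells, split by gene. miR-34c-5p had 16.4, 5.70, 10.6, 6.90 and 15.8 RPM in the 12-week libraries, against 100.1, 88.3, 71.7, 54.4 and 79.1 RPM in the 1-day libraries (log2 change −2.80 ± 0.40, adjusted p = 1.14e-06, limma), and its neighbour miR-34b-3p had 6.54, 1.68, 3.60, 1.15 and 6.34 RPM in the 12-week libraries, against 19.9, 18.7, 23.9, 18.9 and 20.3 RPM in the 1-day libraries (log2 change −2.31 ± 0.37, adjusted p = 5.74e-06, limma). miR-34b-5p reached 1 RPM at 1 day only and had to differ. The other 3 miR-34b and miR-34c members were lower in both scalings, and each 12-week library was below each 1-day library for miR-34c-5p and miR-34b-3p. The shares lower over all 405 tested were 54.8% as deposited and 32.6% after median-ratio scaling, and 53.1% had no overlap. miR-34a, from another locus, had −0.14 ± 0.23 without a call, and 0.43 without a call after median-ratio scaling, where its sign flips. miR-449a-5p, a relative from an intron of CDC20B that was chosen after its values were seen, was higher (0.90 ± 0.30, adjusted p = 0.0106, limma) at the low levels of 2.46 ± 0.893 RPM at 12 weeks and 0.886 ± 0.621 RPM at 1 day (SD, n = 5 each).

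Among miRNAs tied to metabolism, 3 of the 4 members within the sterol regulator genes were lower, against 54.8% of all 405 tested. Of the 3, miR-33b-3p reached 1 RPM at 1 day only and had to differ. miR-33b lies in SREBF1 and miR-33a in SREBF2, and both repress the cholesterol exporter ABCA1 in human cells. miR-33b-5p had 1.11, 0.42, 0.79, 0.94 and 0 RPM in the 12-week libraries, against 5.87, 6.18, 1.98, 2.56 and 4.78 RPM in the 1-day libraries (log2 change −1.64 ± 0.31, adjusted p = 5.59e-05, limma). In 12-week replicate 5 it had no read, which allows up to 0.346 RPM there, and at these levels the log2 scale with 1 RPM added understates the change. miR-33a-5p had 5.13, 1.76, 4.50, 3.45 and 1.61 RPM in the 12-week libraries, against 13.7, 12.1, 5.10, 10.6 and 6.98 RPM in the 1-day libraries (log2 change −1.33 ± 0.30, adjusted p = 0.000342, limma). Both were lower after median-ratio scaling too, and of these only the miR-33a-5p libraries overlapped. The other strand, miR-33a-3p, was not called (−0.37 ± 0.21, adjusted p = 0.126, limma), and its sign flips after median-ratio scaling (0.0587). miR-378-3p, from an intron of the mitochondrial coactivator gene PPARGC1B, had −0.93 ± 0.19 (adjusted p = 0.000156, limma) and was not called after median-ratio scaling (−0.34).

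In the other direction moved miR-103 and miR-107, which lie in the pantothenate kinase genes PANK2 and PANK1 and lower insulin sensitivity in mouse. miR-103-3p had 2432, 2691, 2099.9, 2313 and 1831 RPM in the 12-week libraries, against 1168, 1293, 1354, 1068 and 1115 RPM in the 1-day libraries (log2 change 0.92 ± 0.15, adjusted p = 8.22e-06, limma), and miR-107-3p had 0.48 ± 0.17 (adjusted p = 0.015, limma). Neither overlapped between ages, and both were higher in the 2 other scalings. The shares higher over all 405 tested were 11.6% as deposited, 29.1% after median-ratio and 27.4% after TMM scaling, and 53.1% had no overlap.

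Fewer members were higher than lower. In the miR-29 family, which represses collagen messenger RNAs, 5 of 6 members were higher under the deposited, median-ratio and TMM scalings. The shares higher over all 405 tested were 11.6%, 29.1% and 27.4%. miR-29a-3p had 9107, 9999, 10146, 8483 and 8619 RPM in the 12-week libraries, against 3416, 3193, 4180, 3583 and 2930.4 RPM in the 1-day libraries (log2 change 1.43 ± 0.10, adjusted p = 2.83e-11, limma). No library of either age came near the other age. miR-29b-3p had 244, 225, 269, 206 and 141 RPM in the 12-week libraries, against 103, 78.6, 90.2, 91.9 and 73.9 RPM in the 1-day libraries (log2 change 1.28 ± 0.17, adjusted p = 6.49e-07, limma), also without overlap, and miR-29c-3p had 0.69 ± 0.16. miR-365-3p had 1052, 614, 771, 569 and 594 RPM in the 12-week libraries, against 239.5, 277, 306, 219 and 265 RPM in the 1-day libraries (log2 change 1.43 ± 0.19, adjusted p = 3.69e-07, limma). miR-193b-3p (1.18 ± 0.21) and miR-193a (1.08 ± 0.22) rose as well. For miR-365-3p and both miR-193 entries, 12-week replicate 1 was the highest library and 1-day replicate 4 the lowest, and without 12-week replicate 1 the miR-193 log2 changes were 1.04 and 0.93, both still called.

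The miR-15/miR-16/miR-195/miR-497 family held calls in both directions in the deposited values. miR-195 and miR-497, neighbours in the annotation, had all 3 members higher in both scalings, with miR-195-5p at 0.62 ± 0.18 and miR-497-5p at 0.51 ± 0.16, both chosen after their values were seen. miR-15a-5p, beside miR-16a, had 1076, 826, 1092, 951 and 517 RPM in the 12-week libraries, against 693, 566, 502, 571 and 646 RPM in the 1-day libraries (log2 change 0.54 ± 0.18, adjusted p = 0.00948, limma), with 12-week replicate 5 within the 1-day range. The pair in SMC4 is described above. The family as a whole had 5 higher and 3 lower of 10 members (11.6% and 54.8% over all 405 tested). After median-ratio scaling it had 7 higher and none lower (29.1% and 32.6%). Its share of RPM was 1.68% ± 0.117 at 12 weeks and 1.03% ± 0.0554 at 1 day (SD, n = 5 each). The miR-26 family held 9.06% ± 0.940 of RPM at 12 weeks and 6.06% ± 0.291 at 1 day, with miR-26b-5p not called (0.17 ± 0.09, and 0.75, called higher, after median-ratio scaling). Both strands of miR-101 were higher, the scarce miR-101-5p at 7.78 ± 1.33 RPM at 12 weeks and 4.27 ± 0.452 RPM at 1 day (SD, n = 5 each; log2 change 0.73 ± 0.19, adjusted p = 0.00175, limma).

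**Figure D3:**
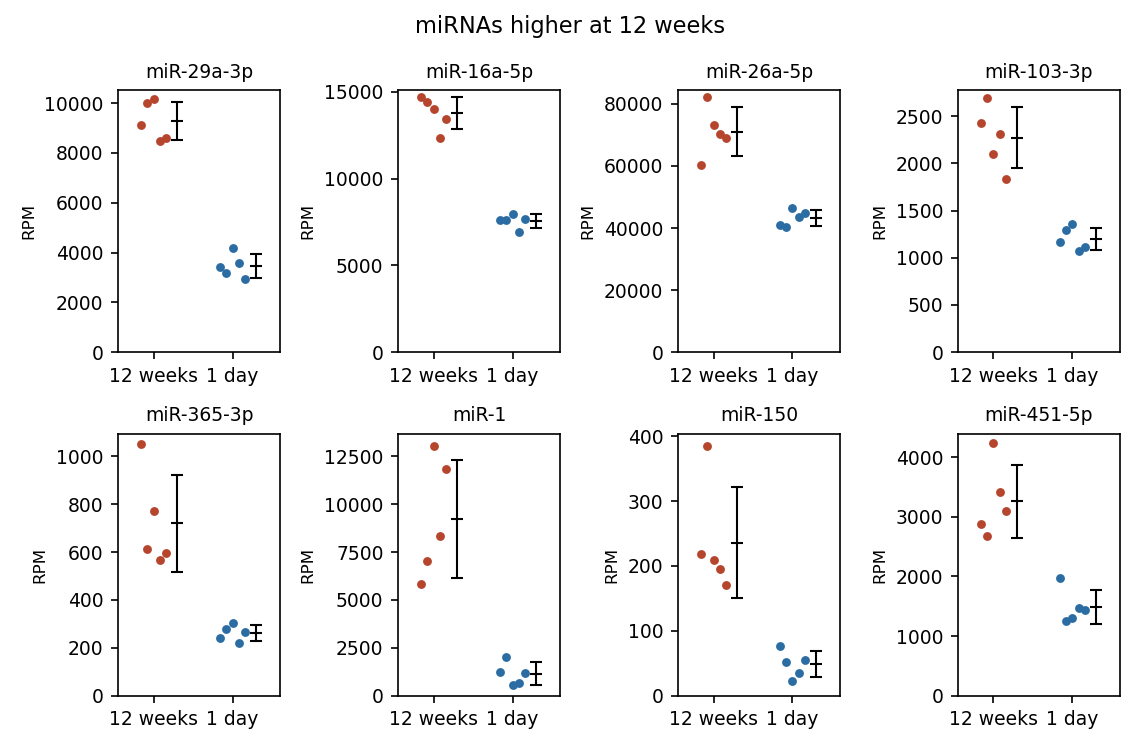
RPM of 8 miRNAs in each library (points; 12 weeks left, 1 day right) with mean ± SD beside them (n = 5 each), on linear axes that start at 0. Each 12-week library is above each 1-day library in all 8 panels, and miR-1 stands at 5852 to 13037 RPM at 12 weeks.

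In other families the calls changed with the scaling. Over all tested miRNAs 11.6% were higher and 54.8% lower as deposited, and 29.1% and 32.6% after median-ratio scaling. The let-7 family had 4 members higher and 7 lower of 20 as deposited, against 10 higher and 2 lower after median-ratio scaling. miR-98-5p was lower in both (−0.92 ± 0.12, adjusted p = 2.31e-07, limma), with 2100.3, 2055, 1947, 2209.7 and 1889.8 RPM in the 12-week libraries, against 3426, 3790.3, 4133, 4060.4 and 3879 RPM in the 1-day libraries. let-7i-5p was lower as deposited (−0.48 ± 0.10) and turned to 0.10, not called, after median-ratio scaling. The miR-30 family had 2 higher and 6 lower of 11, and 4 higher and none lower after median-ratio scaling, and its abundant miR-30a-5p had 0.26 ± 0.14 without a call. The miR-181 family had all 5 members lower (miR-181b-5p −0.86 ± 0.13, oar-miR-181a −0.54 ± 0.14) and none called after median-ratio scaling, where oar-miR-181a turns to 0.05. For miR-23/miR-24/miR-27 the counts were none higher and 3 lower of 9, and 5 higher and none lower after median-ratio scaling. For miR-99/miR-100 and miR-125 they were none higher and 5 lower of 11, with 4 higher and none lower after that scaling (miR-99a-5p −0.09 ± 0.13, miR-125b-5p −0.25 ± 0.14, both turning positive). For miR-221 and miR-222, which repress the cell-cycle inhibitor p27 in human cells, they were none of 3 (miR-221-3p 0.42 ± 0.20, miR-222-3p 0.43 ± 0.23), and 3 higher after that scaling. The miR-148/miR-152 family had none higher and 2 lower of 5, and 3 higher and none lower after it. In the list of miR-23/miR-24/miR-27, leaving out 1 library moved the 3 lower calls to as few as 1, and that of miR-24-3p ended without 1-day replicate 3 (adjusted p = 0.0611, limma).

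**Figure D4:**
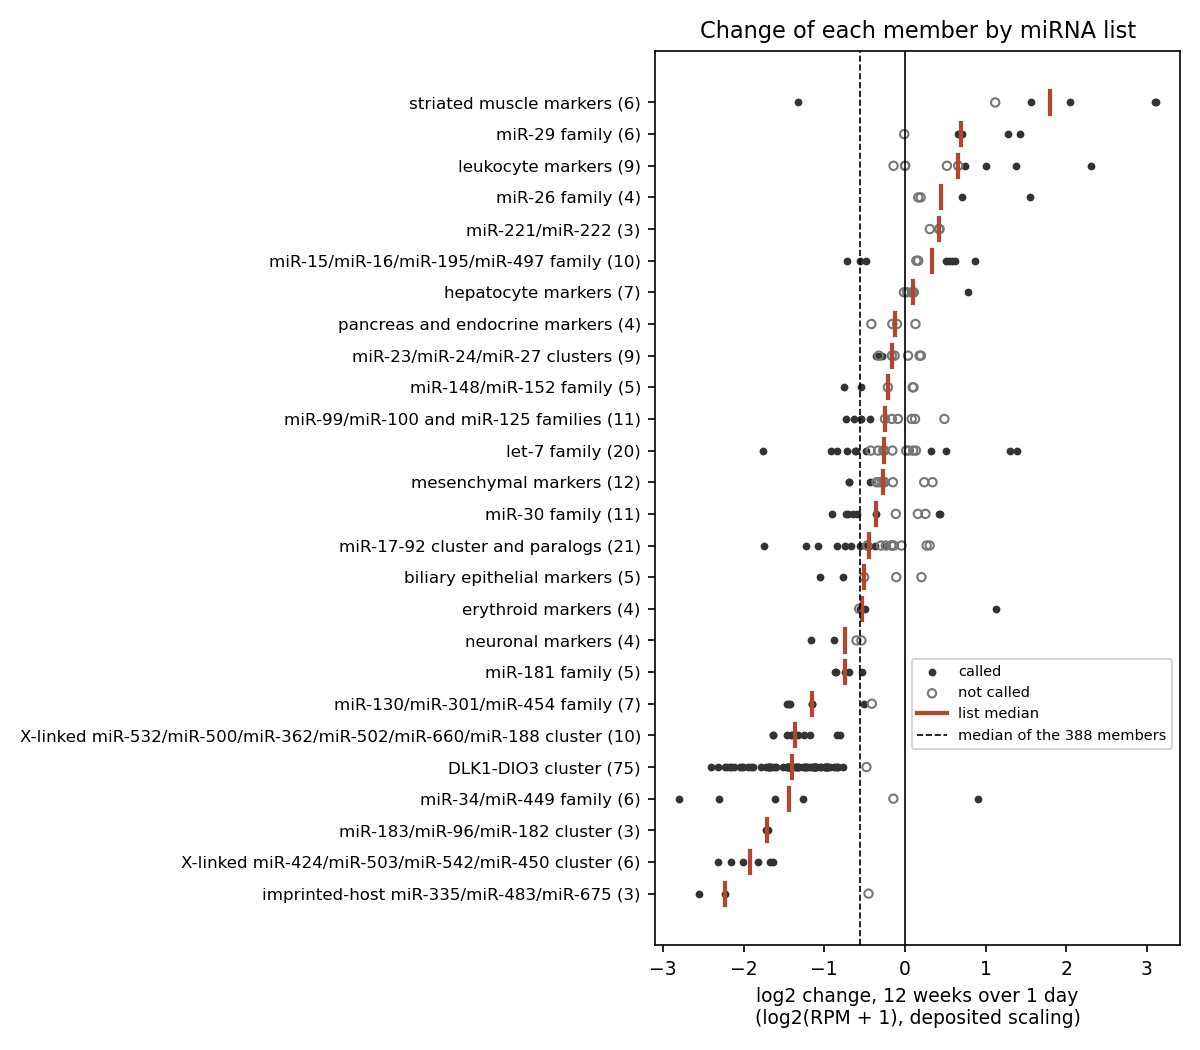
Log2 change at 12 weeks over 1 day (x axis, deposited scaling) of each member of 26 miRNA lists with at least 3 members, 1 row per list with its number of members; filled points are called, open points are not, and red bars are list medians. The dashed line is the median of the 388 members (−0.56), and the X-linked, imprinted and miR-183 lists lie to its left with few or no members to the right of it.

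Markers of other cell types moved beside these groups. Over all 405 tested, 11.6% were higher and 54.8% lower as deposited, and 29.1% and 32.6% after median-ratio scaling. Of 6 striated muscle miRNAs, miR-133b and miR-206 reached 1 RPM at 12 weeks only, and of the other 4, 3 were higher and 1 lower in both scalings. The share summed over all 8 striated muscle entries was 0.610% to 1.34% of RPM at 12 weeks, against 0.0637% to 0.215% at 1 day. miR-1 had 5852, 7055, 13037, 8347 and 11814 RPM in the 12-week libraries, against 1251, 2043, 565, 655 and 1205 RPM in the 1-day libraries (log2 change 3.10 ± 0.34, adjusted p = 3.81e-08, limma), and miR-133a-3p had 314, 376, 509, 407 and 369 RPM in the 12-week libraries, against 56.7, 90.5, 28.04, 23.6 and 49.1 RPM in the 1-day libraries (log2 change 3.11 ± 0.31, adjusted p = 1.29e-08, limma). Replicate 3 of the 12-week libraries was the highest and replicate 3 or 4 of the 1-day libraries the lowest in both. miR-499-5p, from an intron of the muscle myosin gene MYH7B, went the other way, with 17.9, 20.1, 18.6, 17.6 and 20.4 RPM in the 12-week libraries, against 49.8, 46.6, 52.4, 54.1 and 41.7 RPM in the 1-day libraries (log2 change −1.32 ± 0.17, adjusted p = 3.69e-07, limma). miR-206, a skeletal muscle miRNA, had 1.21, 1.34, 7.20, 1.57 and 1.15 RPM in the 12-week libraries, against 0.31, 0.51, 0.42, 0.72 and 0 RPM in the 1-day libraries, and did not pass (log2 change 1.12 ± 0.56, adjusted p = 0.0821, limma). Except for 12-week replicate 3 its levels were under 2 RPM. The cardiac miR-208b, outside the rule, had no read in 8 of the 10 libraries and at most 0.11 RPM at 12 weeks and 0.14 RPM at 1 day. The part of muscle RNA in these values was not tested.

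Of 9 leukocyte miRNAs, miR-146b-3p reached 1 RPM at 12 weeks only and had to differ. Of the other 8, 3 were higher, and 7 after median-ratio scaling, against 11.6% and 29.1% of all 405 tested. The lymphocyte miRNA miR-150 had 218, 385, 209, 196 and 171 RPM in the 12-week libraries, against 75.96, 51.6, 23.4, 35.3 and 55.7 RPM in the 1-day libraries (log2 change 2.31 ± 0.27, adjusted p = 8.73e-08, limma), with 12-week replicate 2 above the rest. miR-146b-5p, induced in inflammation, had 224, 205, 139, 191 and 233 RPM in the 12-week libraries, against 75.96, 56.5, 79.6, 76.6 and 88.6 RPM in the 1-day libraries (log2 change 1.38 ± 0.28, adjusted p = 0.000145, limma). Both were without overlap. The call of miR-146a (0.74 ± 0.29) was lost without 12-week replicate 5 (adjusted p = 0.0923, limma) or 1-day replicate 2 (0.0875), and the granulocyte miRNA miR-223-3p had 0.52 ± 0.30 without a call (1.11, called higher, after median-ratio scaling). The summed leukocyte share was 0.296% to 0.450% of RPM at 12 weeks and 0.173% to 0.273% at 1 day.

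Of 4 red cell miRNAs 1 was higher and 2 were lower as deposited, against 11.6% and 54.8% of all 405 tested. Leaving out 1 library moved the lower calls to between 0 and 3. After median-ratio scaling 1 was higher and none lower (29.1% and 32.6% of all tested). The neighbours miR-451 and miR-144 disagreed as deposited. miR-451-5p, which Argonaute 2 itself matures, had 2873, 2668, 4235, 3415 and 3097 RPM in the 12-week libraries, against 1976, 1244, 1298, 1470.1 and 1441 RPM in the 1-day libraries (log2 change 1.13 ± 0.26, adjusted p = 0.00045, limma). miR-144-5p had 72.4, 40.4, 86.1, 60.5 and 70.5 RPM in the 12-week libraries, against 99.4, 92.05, 71.4, 95.4 and 99.2 RPM in the 1-day libraries (log2 change −0.50 ± 0.21, adjusted p = 0.0439, limma), with overlap. Its call was lost without 12-week replicate 2 or 4 and without 1-day replicate 1, 2, 4 or 5 (adjusted p of 0.0671 to 0.168, limma), and its sign flips after median-ratio scaling (0.08). Of 7 hepatocyte entries 1 was higher and none lower, and 7 were higher after median-ratio scaling. Of all 405 tested, 11.6% were higher as deposited and 29.1% after that scaling. The 1 higher as deposited was the sheep-named oar-miR-194 (log2 change 0.78, adjusted p = 1.35e-05, limma). It stands beside the goat entry miR-194, and reads may be split between them. miR-122 had 0.09 ± 0.12, miR-148a-3p 0.10 ± 0.12, miR-192-5p 0.03 ± 0.12 and miR-194 −0.01 ± 0.09, none called in the deposited values, and the sign of miR-194 flips after median-ratio scaling (0.58). The list held 25.5% to 29.8% of RPM at 12 weeks and 23.8% to 27.5% at 1 day. Of 4 neuronal miRNAs 2 were lower, a share close to the 54.8% of all tested, and 1 after median-ratio scaling, miR-128-3p (−1.16 ± 0.16 as deposited). Both endothelial miR-126 strands were lower in the deposited values, and 1 was higher and the other not called after median-ratio scaling. The mesenchymal list had 3 of 12 lower, or 2 of 10 with the identical entries of miR-199b and miR-199c counted once, with miR-143-3p not called (−0.15 ± 0.19, and 0.44 after median-ratio scaling). The biliary list had 2 of 5 lower and the pancreas and endocrine list none of 4, against 54.8% of all 405 tested. After median-ratio scaling the mesenchymal list had 2 higher, the biliary list no call and the pancreas and endocrine list 2 higher. Of all 405 tested, 29.1% were higher after it.

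A ratio of both strands of 1 hairpin within a library depends on the scaling between libraries only through the 1 RPM added to each strand. Of 141 hairpins with both strands measured, the log2 ratio of the 5p over the 3p strand changed in 32 (22.7%), with 12 higher (8.51%) and 20 lower (14.2%) at 12 weeks. The 20 include miR-199b and miR-199c, whose values are identical (adjusted p = 0.04998 for each, limma), so 1 result near the threshold is counted more than once. The largest change was in miR-335, whose log2 ratio was 2.73, 2.60, 2.97, 2.24 and 2.71 in the 12-week libraries, against 4.49, 4.25, 4.42, 4.69 and 4.28 in the 1-day libraries (change −1.78 ± 0.21, adjusted p = 1.25e-06, limma). There was no overlap, and the fall lay in the 5p strand. miR-34c had 2.84 ± 0.555 at 12 weeks and 4.37 ± 0.205 at 1 day (change −1.53 ± 0.26, adjusted p = 0.000133). Its 3p strand had 0.656 RPM at 12 weeks and 2.84 RPM at 1 day, near the 1 RPM added to each strand, and with 0.1 RPM added the change was −0.64 and not called.

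In the other large ratio changes the 2 strands changed by different amounts. miR-29b (−1.28 ± 0.27) and miR-103 (−1.22 ± 0.22) gained in their abundant 3p strands, while the 5p strand of miR-29b stood at 1.81 RPM at 12 weeks and 1.83 RPM at 1 day, and that of miR-103 at 0.540 RPM at 12 weeks and 0.944 RPM at 1 day. miR-133a gained in both strands, and more in 3p (−1.07 ± 0.21). On the higher side were miR-26a (1.01 ± 0.19), let-7a (0.94 ± 0.16), miR-98 (0.85 ± 0.18), miR-362 (0.79 ± 0.13) and miR-21 (0.78 ± 0.18). The miR-26a 3p strand had 0.77 RPM at 12 weeks and 1.19 RPM at 1 day, near the 1 RPM added to each strand. The let-7a 3p strand had 50.9 RPM at 12 weeks and 79.1 RPM at 1 day, and the miR-98 3p strand had 9.61 RPM at 12 weeks and 34.6 RPM at 1 day. The miR-362 3p strand had 17.97 RPM at 12 weeks and 58.2 RPM at 1 day, and the miR-21 3p strand had 3.92 RPM at 12 weeks and 9.17 RPM at 1 day. None of the 10 overlapped between ages, and none lost its call when 1 library was left out. With 0.1 RPM added in place of 1 the number of changed hairpins was 20, and with 10 RPM it was 62. Of the 10 named, miR-34c, miR-103 and miR-133a lost their call with 0.1 RPM, and miR-98 and miR-21 with 10 RPM.

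**Figure D5:**
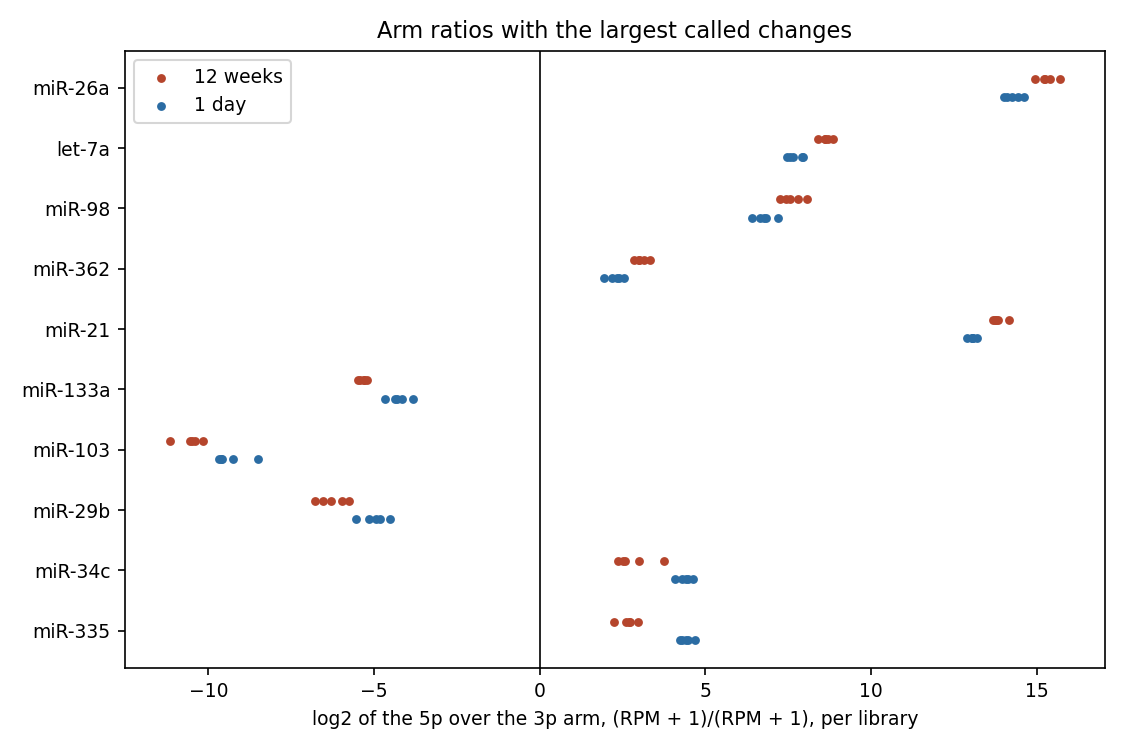
Log2 ratio of the 5p over the 3p strand in each library (x axis; 12 weeks above 1 day in each row) for the 5 largest called increases and the 5 largest called decreases among 141 hairpins. The points of both ages are apart in each row, most widely for miR-335, at 2.24 to 2.97 at 12 weeks and 4.25 to 4.69 at 1 day.

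Sheep-named entries stand in the table beside goat entries of the same miRNA, so reads may be split between them and both levels are uncertain. In 4 such pairs the sheep entry had the larger log2 change. oar-miR-26a stood at 0.633% to 1.05% of miR-26a-5p at 12 weeks, against 0.425% to 0.495% at 1 day. oar-let-7f stood at 0.360% to 0.481% of let-7f-5p at 12 weeks and at 0.145% to 0.229% at 1 day. oar-let-7a stood at 0.248% to 0.315% of let-7a-5p at 12 weeks and at 0.113% to 0.189% at 1 day. The more abundant oar-miR-194 stood at 7.24% to 9.03% of miR-194 at 12 weeks and at 4.31% to 4.98% at 1 day. In each pair the 12-week libraries were above the 1-day libraries. The log2 changes of the sheep and goat entries were 1.55 and 0.71 for miR-26a, 1.39 and 0.14 for let-7f, 1.31 and 0.32 for let-7a, and 0.78 and −0.01 for miR-194. The pairs were chosen after their values were seen. No source used here says how the reads of a pair were assigned.

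At the low end, 336 of the 388 members reached 1 RPM in all 10 libraries and 17 did so in exactly 5. Members that reached 1 RPM at 1 age only could not overlap between ages, so their counts are a description. At 12 weeks only these were miR-133b, miR-206, which was not called, and miR-146b-3p. At 1 day only they were miR-34b-5p, miR-33b-3p, miR-129-3p, miR-412-3p, miR-502b-3p, miR-876-3p, miR-3955-3p, oar-miR-370-5p and oar-miR-541-3p. miR-133b had 2.41, 1.84, 3.49, 2.72 and 2.19 RPM in the 12-week libraries, against 0.31, 0.41, 0, 0.1 and 0.13 RPM in the 1-day libraries. miR-34b-5p had 0.7, 0.42, 0.45, 0.42 and 0.35 RPM in the 12-week libraries, against 4.61, 4.05, 3.68, 2.15 and 3.23 RPM in the 1-day libraries. Just outside the rule were 7 entries at 1 RPM in 4 libraries, and of these miR-502a, miR-592 and oar-miR-323b reached it only at 1 day, with at most 2.20, 3.54 and 1.56 RPM there.

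The ages between are given as means in the deposited scaling, with no test. The percentages covered were not recomputed after median-ratio or TMM scaling, so how far the timing depends on the scaling is not known. For the 12 largest decreases with at least 100 RPM at 1 day, a median of 27.2% of the difference had been covered at 2 weeks, 52.0% at 4 weeks and 80.4% at 8 weeks, and all 12 fell at each step. For the 12 largest increases the medians were 21.8%, 42.3% and 72.6%, and 10 of 12 rose at each step. The imprinted-host miRNAs came early. miR-483 averaged 69.4 RPM at 1 day, 15.9 at 2 weeks, 13.8 at 4 weeks, 10.6 at 8 weeks and 10.8 at 12 weeks, so 91.3% of the difference was covered at 2 weeks. miR-335-5p averaged 13876, 6875, 5245, 3904 and 2996 RPM over the same ages, with 64.4% covered at 2 weeks. Among X-linked miRNAs the timing differed. miR-424-5p came late, with 1079, 1017, 785, 645 and 357 RPM, or 8.58% at 2 weeks. At that age miR-450-5p had covered 18.6%, miR-542-3p 25.4% and miR-532-5p 44.5%. miR-34c-5p was higher at 2 weeks (115 RPM) than at 1 day (78.7 RPM) before it stood at 36.2, 17.5 and 11.1 RPM at 4, 8 and 12 weeks. miR-29b-3p had 87.6, 97.9, 107, 211 and 217 RPM, with most of its rise between 4 and 8 weeks. miR-451-5p was higher at 8 weeks (3654 RPM) than at 12 weeks (3258 RPM).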

How the data were processed

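Liver miRNAs of goat kids were measured by sequencing in 25 libraries, 5 at each of 5 ages. Per the labels' protocols, total RNA was extracted with Trizol and libraries were made with a kit for stranded total RNA. The submitters' processing notes list the aligner Bowtie 1.1.1. No source used here gives the build, the miRNA annotation, any size selection or how reads with several matches were counted. No header or label states the unit. The deposited values were taken to be RPM, since the 10 libraries sum to 1012514 to 1015698 each, and the main results use them unscaled.

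Values were taken as log2(RPM + 1). A limma 3.58.1 model (R 4.3.3, variance trend on) held a mean for each age and all 25 libraries. It covered the 405 miRNAs that reached 1 RPM in 5 or more of them, with Benjamini-Hochberg adjustment over these 405. Hairpins with both strands measured were tested in the same way on the log2 ratio of their strands, with 1 RPM added to each and adjustment over 141 hairpins. ± is the SD over 5 libraries after a mean and the standard error of the fit after a log2 change. Because 1 RPM was added, log2 changes of scarce miRNAs are understated. The steps were tested on simulated data. Python 3.11.15 with pandas 2.3.3 and numpy 2.4.6 made the summaries and matplotlib 3.10.9 the figures.

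Hosts and neighbours (miRNA genes at most 10000 bases apart) come from the RefSeq annotation of the goat assembly ARS1.2, which matched 248 of 287 precursor names and 343 of 388 members. Named miRNAs are the 12 largest increases and 12 largest decreases called in the deposited and median-ratio scalings with no overlap and at least 100 RPM in the higher age, the top members by RPM (4 at most) in each of 29 lists, the 5 largest changes of strand ratio in each direction, and abundant members with opposite calls in the 2 scalings. The members and lists were chosen with earlier results of these data known. Sums over miRNAs that share a seed were planned and not made, since mature sequences were not used here, and tests on whole reads were not run because too few low values per library were left to check recovered reads. Alternatives were median-ratio and TMM scaling, other filters and added constants, the 10 libraries alone, a replicate block, sheep-named entries left out, and each of the 10 libraries left out in turn. Counts without members at 1 RPM at 1 age only, and with identical members counted once, were chosen after seeing the data.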

Additional observations from a re-analysis of the deposited data

Results flagged for a closer look

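Among the miRNAs named in the text, 20 of 212 sets of 5 libraries held 1 library far from the other 4, and among all 388 members 67 of 776 sets did (8.63%). Chance gives about 1 in 20. The far library was most often 1-day replicate 3 (17 sets), 12-week replicate 5 (15) and 12-week replicate 1 (10). No explanation was tested.

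12-week replicate 1 was high in 5 of them. It had 417 RPM of miR-193b-3p, against 238 to 273 in the other 4, and 358 RPM of miR-193a, against 205 to 232. It had 971 RPM of miR-450-5p, against 428 to 569, then 19.7 RPM of miR-483, against 7.61 to 10.02, and 0.700 RPM of miR-34b-5p, against 0.350 to 0.450. 12-week replicate 2 was high in miR-150 (385 RPM, others 171 to 218) and low in miR-340-5p (322 RPM, others 467 to 504), a miRNA chosen after its values were seen, with a log2 change of −1.22 ± 0.15. 12-week replicate 3 was high in miR-206 (7.20 RPM, others 1.15 to 1.57). 12-week replicate 4 was low in miR-181b-5p (159 RPM, others 194 to 205) and miR-96 (3.97 RPM, others 5.87 to 6.57) and high in miR-331-5p (56.7 RPM, others 47.4 to 48.8). 12-week replicate 5 was high in miR-146a (3255 RPM, others 1540.2 to 1862) and low in miR-195-5p (31.9 RPM, others 49.9 to 55.3).

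At 1 day, replicate 4 was low in miR-193b-3p (94.2 RPM, others 124 to 134), miR-193a (85.5 RPM, others 116 to 127) and miR-19b-3p (735 RPM, others 987 to 1085). Replicate 3 was high in miR-483 (126 RPM, others 40.6 to 63.2) and miR-182 (95.7 RPM, others 47.1 to 61.0) and low in miR-144-5p (71.4 RPM, others 92.05 to 99.4). Replicate 2 was high in miR-192-5p (14033 RPM, others 12670.1 to 12983).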

How the results depend on the processing

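The log2 changes of 116 named miRNAs and strand ratios were recomputed under the alternatives. Of the outcomes, 2114 kept their direction and side of the threshold, 41 gained a call, 52 lost a call and 54 changed sign. The counts of called members are not part of this tally. Scaling mattered most, and its cause was not tested: 116 members were higher and 129 lower after median-ratio scaling, and 110 and 133 after TMM scaling. Asking for a log2 change of at least 1 left 138 (18 higher, 120 lower). The fits without 1 library gave 254 to 265 called members (43 to 50 higher, 211 to 219 lower) and 24 to 34 strand ratios (10 to 16 higher, 14 to 18 lower). Strand ratios numbered 20 (9 lower) with 0.1 RPM added, 62 (24 higher, 38 lower) with 10 RPM added, and 17 (7 higher, 10 lower) with both strands at 10 RPM or more, where fewer hairpins were tested.

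The sign turned, with log2 changes after median-ratio and TMM scaling in brackets, for miR-335-3p (0.14, 0.10), miR-34a (0.43, 0.40), let-7i-5p (0.10, 0.0693), miR-30e-5p (0.23, 0.19), miR-92a-3p (0.42, 0.39), miR-25-3p (0.35, 0.32), miR-93-5p (0.22, 0.18), miR-15b-5p (0.11, 0.0730), miR-27b-3p (0.23, 0.20), miR-24-3p (0.30, 0.27), miR-99a-5p (0.50, 0.47), miR-125b-5p (0.34, 0.31), miR-130a-3p (0.0741, 0.0387), oar-miR-181a (0.0513, 0.0156), miR-194 (0.58, 0.54), miR-126-3p (0.31, 0.28), miR-143-3p (0.44, 0.40), miR-21-5p (0.32, 0.29), miR-151-5p (0.37, 0.33), miR-144-5p (0.0830, 0.0477), miR-17-5p (0.29, 0.26), miR-19b-3p (0.42, 0.39), miR-200b (0.0824, 0.0467), miR-331-5p (0.28, 0.24) and miR-33a-3p (0.0587, 0.0315). Without 1 library a call was gained by miR-30a-5p (2 fits), miR-26b-5p (1), miR-221-3p (3), miR-222-3p (2), miR-200b (3) and miR-33a-3p (1). Values near 0 turned without 1 library: miR-148a-3p had −0.0210 without 12-week replicate 5, miR-194 ranged from −0.0404 (without 12-week replicate 1) to 0.0244 (without 12-week replicate 5), and miR-192-5p from −0.0191 and −0.0027 (without 12-week replicates 1 and 4) to 0.0639 (without 12-week replicate 5).

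With the replicate number as a block, 263 members were called (46 higher, 217 lower) and 31 strand ratios. The 12-week and 1-day libraries that share a number had correlations of −0.20 to 0.17 between their deviations from the age means. Libraries with different numbers were not compared in this way, so whether the numbers pair the libraries was not tested. The planned tests on whole reads and sums over shared seeds were not run. At 1 read for 0.0838 to 0.142 RPM, depth limits the members under 10 RPM.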
